A study of Mus musculus with 10 samples.

Results

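The genes described here are 10 genes of the response to amino acid shortage that the transcription factor Atf4 drives, measured in murine Mll-AF9 leukaemia cells with and without a short hairpin RNA (shRNA) against Meis1. They are Atf4, Ddit3, Atf3, Trib3, Chac1, Asns, Phgdh, Psat1, Shmt2 and Mthfd2. All probe sets that the array's platform annotation assigns to 1 of these symbols alone were taken, which gave 23 of the 45037 probe sets measured, or 10 of the 18193 genes with such a probe set. The platform annotation assigned 2 further probe sets to Phgdh together with a predicted gene, and these were left out.

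The series holds 10 Affymetrix arrays. In 5 of them the cells, leukaemia line 4166, carried a lentivirus with the Meis1 shRNA. The other 5 are controls, transduced with the same kind of virus as empty vector, so that the controls carried no hairpin. Cells of both groups expressed the Mll-AF9 fusion, were cultured with 15% fetal bovine serum in IMDM plus interleukin 3 at 2 ng/ml, were selected with puromycin and were collected 48 h after transduction. The labels describe 1 line and 1 Meis1 shRNA construct, and pair the arrays of the 2 groups by number. Whether the numbered samples were separate cultures is not stated there. The p-values therefore speak only for the spread among these samples, some of which may be technical.

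Cells that lack an amino acid, whose protein folding or haem supply is disturbed, or that sense viral RNA, phosphorylate the translation factor eIF2alpha. General translation then slows while Atf4 mRNA is translated more, so Atf4 protein can rise with little change in its transcript. Atf4 binds with C/EBP partners to composite sites and induces amino acid synthesis, transport and tRNA charging genes, and, under lasting stress, Ddit3, Trib3 and Chac1. Proliferating leukaemia cells depend on serine and asparagine supply, which is why Phgdh, Psat1 and Asns are studied in them.

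The composite site, the C/EBP-ATF response element, was searched for as the letters TGATGNAA on both strands, in the RefSeq windows of GRCm38.p6 from 250 bases before to 50 bases after each gene's start. All 10 genes had a window, with 2 windows for Psat1. The windows of 4 genes held a match, namely Asns, Atf3, Chac1 and Trib3, and those of 6 genes did not. Of all 32851 windows, 3.97% held a match. A match is a description of the letters, not a site shown to be bound. The 250 bases before the start are shown for Asns, Phgdh, Chac1 and Atf3, with any match in capitals. Asns and Phgdh had the probe sets with the lowest p-values below among those of the 10 genes. For Trib3 the match lay after the start, and 30 bases around it are shown.
Asns: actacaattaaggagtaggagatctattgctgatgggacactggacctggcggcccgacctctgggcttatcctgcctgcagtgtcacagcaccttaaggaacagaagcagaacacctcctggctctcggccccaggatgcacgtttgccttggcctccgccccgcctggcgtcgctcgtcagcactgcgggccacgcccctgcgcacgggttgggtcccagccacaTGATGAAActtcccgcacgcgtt
Phgdh: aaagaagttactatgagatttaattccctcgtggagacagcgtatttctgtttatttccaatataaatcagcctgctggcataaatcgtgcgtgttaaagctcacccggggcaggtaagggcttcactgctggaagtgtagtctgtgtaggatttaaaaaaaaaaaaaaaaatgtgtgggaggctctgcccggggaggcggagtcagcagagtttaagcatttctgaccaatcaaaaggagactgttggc
Chac1: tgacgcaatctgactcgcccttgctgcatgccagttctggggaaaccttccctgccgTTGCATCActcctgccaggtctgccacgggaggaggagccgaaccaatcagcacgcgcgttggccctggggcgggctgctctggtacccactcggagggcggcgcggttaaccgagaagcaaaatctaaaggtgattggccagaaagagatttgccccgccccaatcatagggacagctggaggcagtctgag
Atf3: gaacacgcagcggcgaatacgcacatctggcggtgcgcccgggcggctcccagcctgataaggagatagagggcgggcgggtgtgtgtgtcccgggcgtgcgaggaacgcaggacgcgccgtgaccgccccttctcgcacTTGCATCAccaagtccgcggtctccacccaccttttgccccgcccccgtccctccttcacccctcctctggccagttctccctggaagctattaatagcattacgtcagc
Trib3: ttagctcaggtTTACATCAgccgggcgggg
The Asns run is chr6:7693210-7693459 and its match, TGATGAAA, begins 23 bases before the start. The Phgdh run is chr3:98339970-98340219. Those of Chac1 (chr2:119350992-119351241) and Atf3 (chr1:191183334-191183583) hold the same letters, TTGCATCA, which begin 193 and 110 bases before the start. The Trib3 run is chr2:152344028-152344057. Chac1 lies on the plus strand and the other 4 on the minus strand, and all are written in the direction of the gene.

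Arrays gave 1 intensity per probe set on a linear scale after RMA, from 1.30 to 32400, with a median per array of 6.24 to 6.70. Changes below are shRNA minus empty vector on the log2 scale, from a paired fit in limma over all probe sets. A probe set is called bright where its log2 level averaged above 5, and dim otherwise. Of 12 myeloid markers 10 had a mean log2 level above 5, among them Mpo, Elane, Prtn3 and Ctsg. No measured T cell, B cell, erythroid, megakaryocyte, stromal or endothelial marker did. In the list of 4 genes used for mast cells Mcpt8 alone did, while Cpa3, Fcer1a and Tpsb2 were dim. The myeloid markers summed to 21540 to 35920 with the shRNA and 23750 to 40880 with the empty vector. Of these 12, Elane fell by 0.40 (log2, SE 0.08, adjusted p = 0.0338 by limma over genes), Ptprc fell by 0.35 (SE 0.07, adjusted p = 0.0379) and Lyz2 rose by 0.79 (SE 0.16, adjusted p = 0.0349). The dim endothelial marker Pecam1, 1 of 3 in a list that summed to 18.1 to 35.3 with the shRNA and 21.8 to 54.9 with the empty vector, fell by 0.71 (SE 0.15, adjusted p = 0.0369). No marker of the other lists passed, and the part of these markers in the results below was not tested. Meis1 (probe set 1450992_a_at) read 192.6, 220.7, 126.7, 142.4 and 140.2 with the shRNA, against 395.9, 413.1, 297.1, 332.7 and 290.3 with the empty vector. Its groups did not overlap, and Meis1 fell by 1.09 (log2, SE 0.09, adjusted p = 0.00077 by limma), while its other 2 probe sets were dim and did not pass. The Gapdh and actin control probe sets gave a 3 prime to 5 prime ratio that was higher with the shRNA in all 5 pairs, at 0.37 ± 0.02, against 0.28 ± 0.06 with the empty vector (log2, SD, n = 5 each). By an exact sign-flip permutation test (two-sided) p was 0.0625, and 5 pairs cannot give a smaller one.

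None of the 23 probe sets passed an adjusted p of 0.05, whereas 2.48% of all probe sets did (1116) and 7.04% of the bright ones. Of all probe sets 1.96% were called lower (881) and 0.522% higher (235), so that 78.9% of the calls were lower, or 65.0% after quantile normalization. At an unadjusted p under 0.05 there were 6 of 23, all lower with the shRNA, from Asns, Phgdh, Psat1 and Shmt2. Among all probe sets 9.17% were lower and 5.62% higher at that level, 14.8% in all. The changes of 16 of 23 were below 0 (13 after quantile normalization and 20 with arrays centred on their medians), beside 47.8% of all probe sets and 59.8% of the bright ones. Bright probe sets were lower more often in general. Of the 18 members with a mean log2 level above 5, 5 were lower at an unadjusted p under 0.05, beside 21.9% of all such probe sets. The median change of the 23 was -0.10, beside 0.01 for all probe sets. For the 18 bright ones it was -0.15, beside -0.05 for all bright probe sets. The 6 probe sets of the transcription factors lay between -0.07 and 0.16 and the 8 of asparagine and serine synthesis between -0.36 and 0.04.

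**Figure D1:**
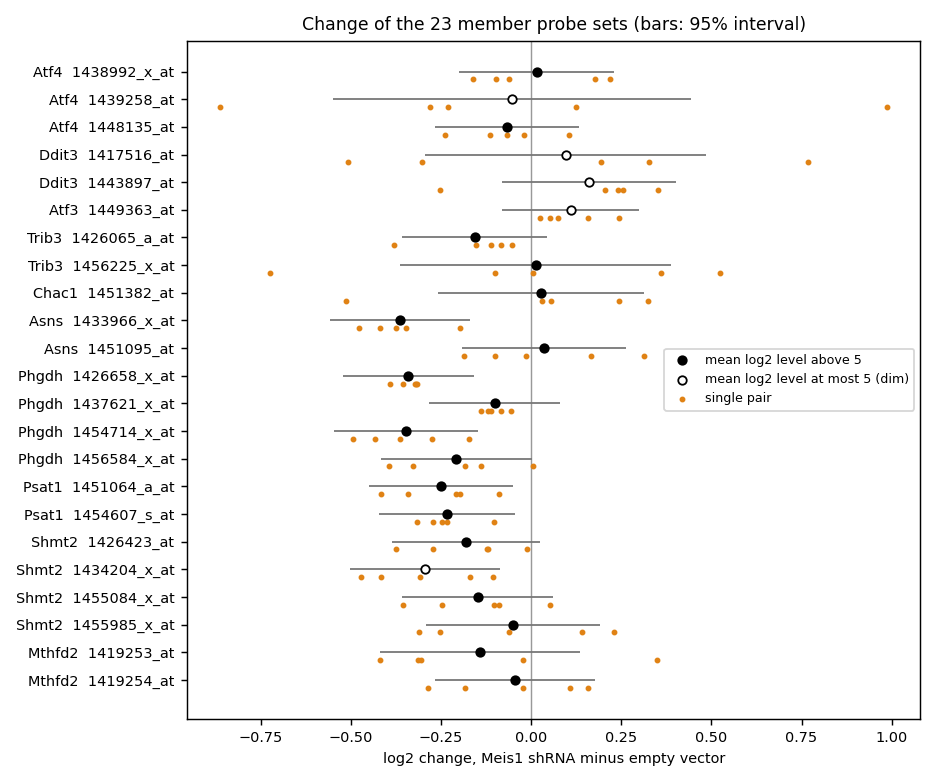
Log2 change (x axis, shRNA minus empty vector) of each of the 23 probe sets, grouped by role. Circles give the fitted change with its 95% interval, open for dim probe sets, and small orange points give the 5 single pairs. Most probe sets of Phgdh, Psat1 and Shmt2 lie left of 0 with all or nearly all pairs, while those of Atf4, Ddit3, Trib3 and Chac1 lie on both sides.

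Asns, asparagine synthetase, makes asparagine from aspartate and glutamine. Its probe set 1433966_x_at read 1154, 1083, 897.9, 927.1 and 810.9 with the shRNA, against 1468, 1449, 1251, 1203 and 929.2 with the empty vector. Each shRNA array was lower than its partner, but the groups overlapped, and the arrays of pair 5 were low in both. The change was -0.36 (SE 0.09, 95% interval -0.56 to -0.17), a level 1.29-fold lower, with an adjusted p of 0.069 by limma over all probe sets. Fitted and adjusted over 18193 genes with 1 probe set each, where 4.06% of genes passed, it was 0.0438. In that fit the variances were moderated anew, and the unadjusted p by limma was 0.0016, against 0.0022 over all probe sets. The call therefore depends on which features enter the fit and the adjustment. In the unpaired fit the adjusted p was 0.275.

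The second Asns probe set did not show this. Asns 1451095_at read 988.2, 1159, 926.8, 812.8 and 782.7 with the shRNA, against 1059, 1032, 936.2, 925.5 and 630.1 with the empty vector. The groups overlapped almost fully, and the change was 0.04 (95% interval -0.19 to 0.26, adjusted p = 0.922 by limma). The change of 1433966_x_at minus that of 1451095_at was -0.40 ± 0.17 (SD over 5 pairs) and below 0 in all 5 pairs. The exact sign-flip permutation p was 0.0625, the smallest possible, or 0.292 adjusted over the 14 differences between bright probe sets of 1 gene. The mean of both Asns probe sets had a change of -0.16 (adjusted p = 0.307 by limma over genes).

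Phgdh, phosphoglycerate dehydrogenase, draws 3-phosphoglycerate from glycolysis into serine synthesis. Phgdh 1426658_x_at read 1691, 1710, 1377, 1373 and 1269 with the shRNA, against 2161, 2138, 1713, 1800 and 1582 with the empty vector. The differences within pairs were nearly equal, from -0.32 to -0.39, while the groups overlapped. The change was -0.34 (SE 0.08, 95% interval -0.52 to -0.16), 1.27-fold lower, with an adjusted p of 0.0691 by limma. Phgdh 1454714_x_at read 3107, 3471, 2296, 2407 and 2500 with the shRNA, against 4001, 3913, 3231, 3250 and 3027 with the empty vector. Its change was nearly as large, -0.35 (SE 0.09, adjusted p = 0.0875 by limma), again lower in all 5 pairs.

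The other Phgdh probe sets showed smaller differences. Phgdh 1456584_x_at had a change of -0.21 (adjusted p = 0.346 by limma) and was lower in 4 of 5 pairs. Phgdh 1437621_x_at, the brightest, had 4013 ± 196.8 with the shRNA and 4304 ± 213.6 with the empty vector (SD, n = 5 each). It was lower in all 5 pairs by a change of only -0.10 (95% interval -0.28 to 0.08, adjusted p = 0.643 by limma). The change of 1426658_x_at minus that of 1437621_x_at was -0.24 ± 0.03 (SD over 5 pairs) and below 0 in every pair, with the same smallest exact sign-flip permutation p of 0.0625 (0.292 adjusted over 14). In the unpaired fit 1426658_x_at and 1454714_x_at had adjusted p of 0.232 and 0.270.

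Psat1, phosphoserine aminotransferase, catalyses the next step of serine synthesis. Psat1 1454607_s_at read 2160, 1954, 2136, 1847 and 1898 with the shRNA, against 2609, 2296, 2293, 2299 and 2254 with the empty vector. Every shRNA array lay below every control array, as for 2.75% of all probe sets and 8.06% of the bright ones. The change was -0.23 (SE 0.08, 95% interval -0.42 to -0.05), and the adjusted p was 0.224 by limma. Psat1 1451064_a_at read 2137, 2073, 1734, 1732 and 1653 with the shRNA, against 2273, 2375, 2312, 2195 and 1911 with the empty vector. It was lower in all 5 pairs, with overlapping groups and a change of -0.25 (SE 0.09, adjusted p = 0.222 by limma). Both probe sets of Psat1 gave nearly the same size, and their changes differed by -0.02 ± 0.18 (SD over 5 pairs).

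**Figure D2:**
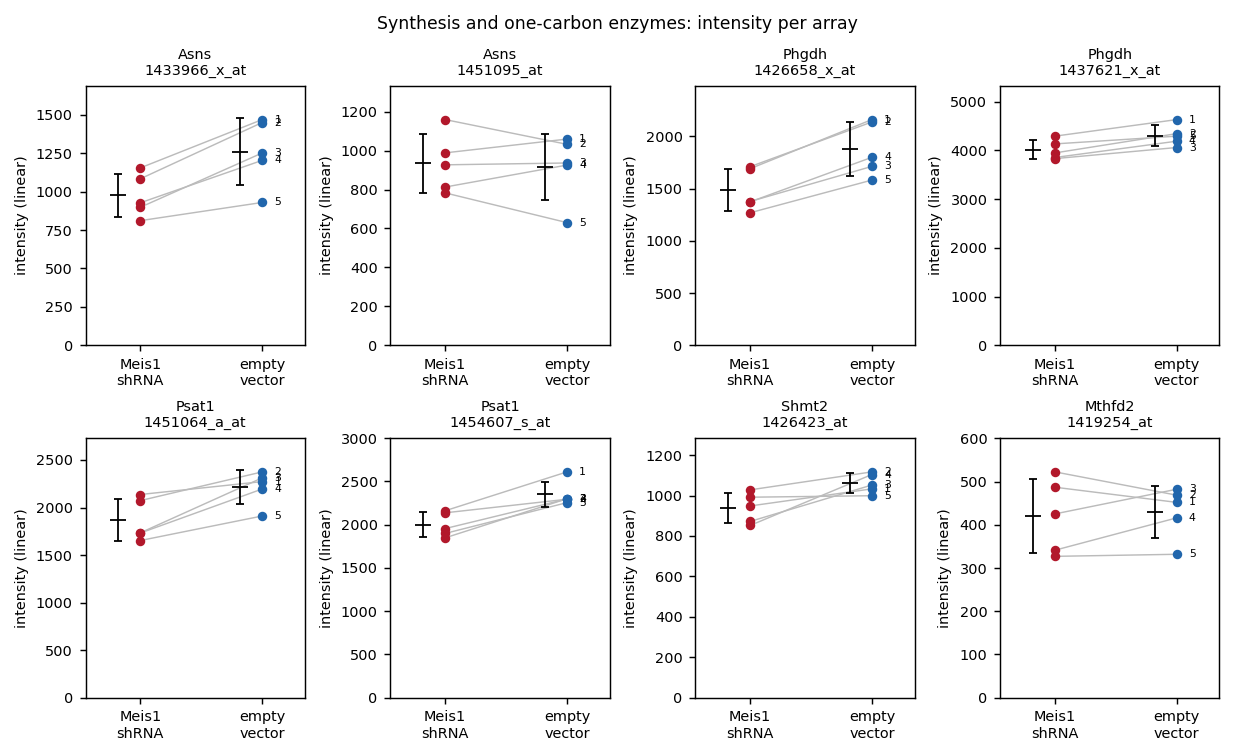
Intensity on a linear scale (y axis, from 0) per array for 8 probe sets of the enzymes, with the Meis1 shRNA (red, left) and the empty vector (blue, right). Grey lines join pairs, numbers name them, and black bars give mean ± SD (n = 5). Lines run up to the right in every pair for Asns 1433966_x_at, both Phgdh and both Psat1 probe sets, and both ways for Asns 1451095_at and Mthfd2 1419254_at.

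Across asparagine and serine synthesis, 6 of 8 probe sets were lower with the shRNA in all 5 pairs. By limma 5 of 8 were lower at an unadjusted p under 0.05, beside 9.17% of all probe sets and 21.9% of the bright ones. The 8 come from 3 genes, 4 of them from Phgdh, so they are not separate observations. Of all probe sets 8.56% were lower in all 5 pairs, and of the bright ones 21.3%. The median of the 8 was -0.24. When the 3 prime to 5 prime ratio was a covariate beside the pairing, Asns 1433966_x_at was at -0.30, Phgdh 1426658_x_at at -0.30, Phgdh 1454714_x_at at -0.25, Psat1 1451064_a_at at -0.19 and Psat1 1454607_s_at at -0.19. Their adjusted p in that fit lay between 0.950 and 0.980. No probe set of any gene passed in that fit. The ratio was higher with the shRNA in all 5 pairs, so the fit cannot fully separate it from the group. The covariate also takes up 1 more coefficient with only 10 arrays, which lowers precision. What part the ratio has in the changes cannot be told from this fit, here or below.

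Shmt2, the mitochondrial serine hydroxymethyltransferase, passes a carbon unit from serine to folate. Shmt2 1426423_at read 948.4, 1028, 871.7, 851.8 and 991.7 with the shRNA, against 1033, 1117, 1052, 1104 and 999.1 with the empty vector. It was lower in all 5 pairs, though by only 0.01 in pair 5, and had a change of -0.18 (95% interval -0.38 to 0.02, adjusted p = 0.414 by limma). Shmt2 1434204_x_at had non-overlapping groups, as had 2.75% of all probe sets in that direction. It read 10.07 to 10.99 in the shRNA arrays and 11.5 to 14.67 in the controls. It was dim, and its change of -0.29 had an adjusted p of 0.167 by limma. Unspiked bacterial Trpn controls read 3.55 to 4.09 per array as a geometric mean. The other Shmt2 probe sets had changes of -0.15 (1455084_x_at, adjusted p = 0.531) and -0.05 (1455985_x_at, adjusted p = 0.889).

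Mthfd2, the mitochondrial methylene-tetrahydrofolate dehydrogenase and cyclohydrolase, uses that carbon unit. Mthfd2 1419254_at read 487.1, 522.6, 425.3, 341.3 and 327.1 with the shRNA, against 452, 468.7, 482.5, 416.2 and 331.9 with the empty vector. The shRNA arrays were higher in pairs 1 and 2 and lower in pairs 3, 4 and 5. The change was -0.04 (95% interval -0.27 to 0.18, adjusted p = 0.894 by limma). Mthfd2 1419253_at averaged 203.6 ± 22.53 with the shRNA and 228 ± 47.79 with the empty vector (SD, n = 5 each), with a change of -0.14 (95% interval -0.42 to 0.14, adjusted p = 0.677 by limma). When the 3 prime to 5 prime ratio was a covariate, both Mthfd2 changes were above 0 (0.11 for 1419254_at and 0.19 for 1419253_at), and Shmt2 1426423_at was at -0.01.

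Atf4 transcript itself showed no difference beyond the spread. Atf4 1438992_x_at read 1266, 1212, 1489, 1350 and 1352 with the shRNA, against 1353, 1264, 1280, 1195 and 1513 with the empty vector. Its change was 0.02 with a 95% interval of -0.20 to 0.23, which bounds it to between 0.871-fold and 1.17-fold (adjusted p = 0.970 by limma). Atf4 1448135_at read 952.6, 1009, 918.9, 865.4 and 906 with the shRNA, against 1030, 1056, 931.1, 1021 and 842.9 with the empty vector. It was lower in 4 of 5 pairs and had a change of -0.07 (95% interval -0.27 to 0.13, adjusted p = 0.806 by limma). The dim Atf4 1439258_at differed widely between pairs, from -0.86 in pair 2 to 0.99 in pair 5. Transcript levels do not show how much Atf4 protein was made.

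Ddit3 encodes CHOP, a C/EBP family factor that Atf4 induces and that promotes cell death under lasting stress. Ddit3 1417516_at read 19.53, 38.15, 14.1, 23.18 and 28.91 with the shRNA, against 24.09, 22.42, 20.06, 20.25 and 23.03 with the empty vector. The shRNA arrays included both the highest and the lowest value, and the control arrays were close together. The change was 0.10 (95% interval -0.29 to 0.49, adjusted p = 0.867 by limma). The other Ddit3 probe set, 1443897_at, was near the Trpn controls at 6.37 ± 0.821 with the shRNA and 5.68 ± 0.493 with the empty vector (SD, n = 5 each). Its change was 0.16 (adjusted p = 0.567 by limma).

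Atf3, a stress-induced factor of the same bZIP class, was dim. Its 1 probe set, 1449363_at, read 4.83, 5.1, 5.57, 4.98 and 5.83 with the shRNA, against 4.59, 5.02, 5.37, 4.21 and 5.22 with the empty vector. It was higher in all 5 pairs, as were 6.17% of all probe sets, by a change of 0.11 (95% interval -0.08 to 0.30, adjusted p = 0.628 by limma). At such a level a difference in Atf3 was hardly measurable.

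Trib3, a pseudokinase that restrains Atf4 and Ddit3 activity, differed more between pairs than between groups. Trib3 1426065_a_at read 48.48, 48.73, 27.96, 40.92 and 21.07 with the shRNA, against 63.08, 54.2, 30.19, 43.38 and 21.86 with the empty vector. Pairs 1 and 2 were high and pair 5 low in both groups. Each shRNA array was below its partner, with differences from -0.38 in pair 1 to -0.05 in pair 5 (log2). The change was -0.16 (95% interval -0.36 to 0.04, adjusted p = 0.480 by limma), whereas the SD of the 5 pair means was 0.58. Trib3 1456225_x_at read 63.3, 35.61, 33.83, 40.89 and 19.05 with the shRNA, against 67.8, 58.84, 23.54, 40.75 and 14.83 with the empty vector. It spanned 4.57-fold over the 10 arrays with a change of 0.01 (95% interval -0.36 to 0.39, adjusted p = 0.985 by limma). The difference between the changes of both Trib3 probe sets was -0.17 ± 0.46 (SD over 5 pairs, exact sign-flip permutation p = 0.438, or 0.681 adjusted over 14).

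Chac1, a cyclotransferase that breaks down glutathione, had the same kind of spread. Chac1 1451382_at read 105.2, 135.3, 81.2, 107.7 and 42.23 with the shRNA, against 101.3, 108.1, 79.47, 90.96 and 60.3 with the empty vector. Pair 5 was lowest in both groups. The shRNA array was higher in 4 of 5 pairs, and the change was 0.03 (95% interval -0.26 to 0.31, adjusted p = 0.956 by limma). The SD of the pair means was 0.49.

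**Figure D3:**
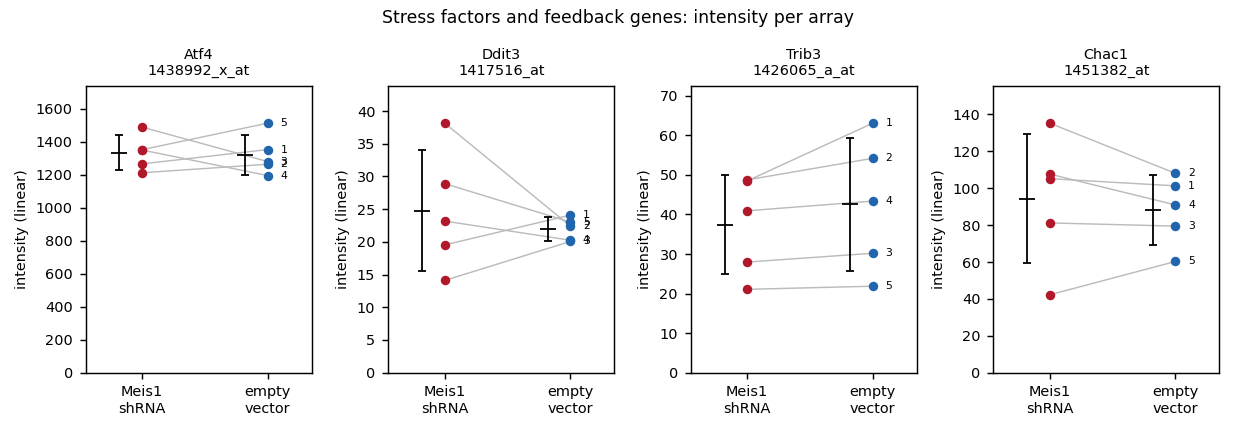
Intensity on a linear scale (y axis, from 0) per array for Atf4, Ddit3, Trib3 and Chac1, with the Meis1 shRNA (red, left) and the empty vector (blue, right). Grey lines join pairs and black bars give mean ± SD (n = 5). The pairs of Trib3 and Chac1 lie at different heights in both groups, with pair 5 lowest, and the Atf4 and Ddit3 lines cross.

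The low level of pair 5 was shared by several members. Mean log2 levels of pairs 1 to 5 were 5.79, 5.68, 4.86, 5.40 and 4.42 for Trib3 1426065_a_at. For Chac1 1451382_at they were 6.69, 6.92, 6.33, 6.63 and 5.66. Those of Asns 1433966_x_at were 10.35, 10.29, 10.05, 10.04 and 9.76, and those of Mthfd2 1419254_at were 8.87, 8.95, 8.82, 8.56 and 8.36. In each of these 4 probe sets pair 5 was the lowest. The bright Atf4 probe sets differed in this, with pair 5 the highest at 10.48 in 1438992_x_at (10.27 to 10.43 in the others) and the lowest at 9.77 in 1448135_at (9.85 to 10.01 in the others). What differed between the numbered pairs is not given in the labels. The log2 3 prime to 5 prime ratio was 0.37 in control 5, against 0.20 to 0.28 in the other controls. Among the shRNA arrays it was 0.33 to 0.39, with 0.39 in pair 5. The part of this ratio in the levels of pair 5 was not tested. Without pair 5 the Asns 1433966_x_at change was -0.41 (adjusted p = 0.0537 by limma, where leaving out each other pair gave up to 0.227), and no member passed without any 1 pair.

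**Figure D4:**
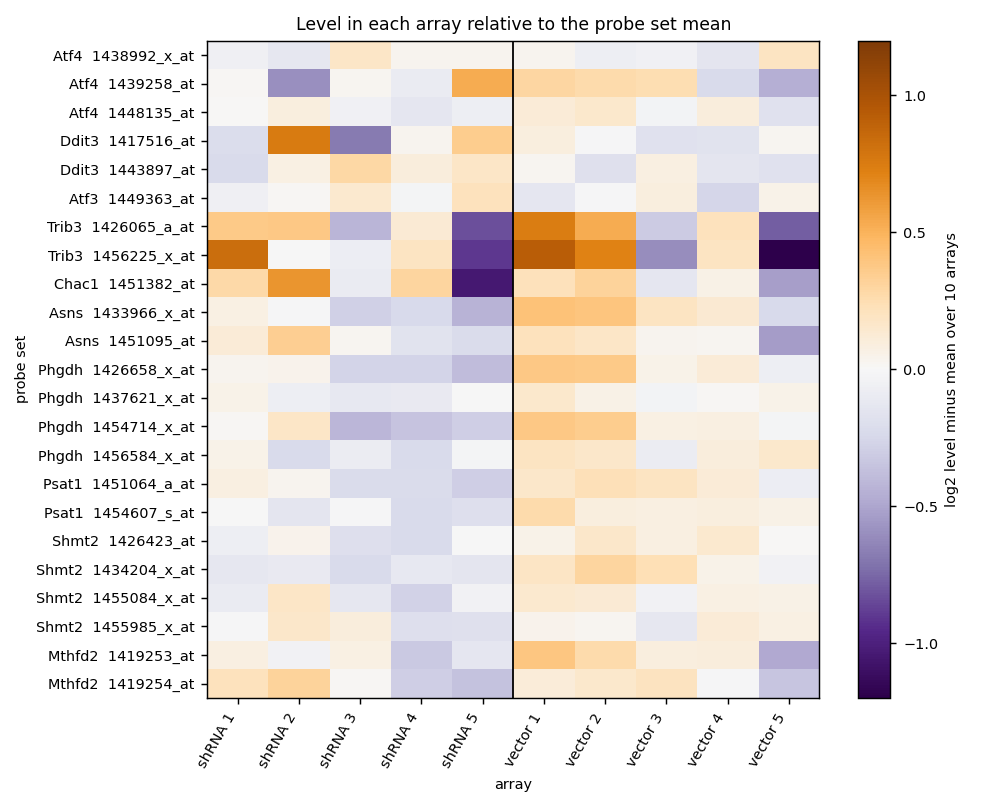
Log2 level of each probe set (rows) in each array (columns, shRNA arrays left of the line and empty vector arrays right), minus its mean over the 10 arrays. Purple marks low and orange high. Trib3 and Chac1 are darkest purple in both arrays of pair 5, and Phgdh, Psat1 and Asns 1433966_x_at are more orange on the right.

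The profiles most like that of Asns 1433966_x_at over the 10 arrays belonged to Rfc5, Sypl, Hat1, Tubg1 and Ube2e3. The root mean square difference of their centred log2 levels from those of Asns was 0.084 to 0.099, where the SD of Asns itself was 0.28. For Atf4 1438992_x_at they were Scp2, Eny2, Psmb4, Pnn and Btf3, at 0.059 to 0.074 with an SD of 0.11 for Atf4. The search covered 6713 genes with a mean log2 level above 5 and left out the 10 members.

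The other genes of the pathway were described with 1 probe set per gene, adjusted over all genes, where 4.06% of genes passed (2.98% lower and 1.08% higher) and the median change was 0.00. Among the bright genes 8.75% passed, 58.5% had a change below 0 and the median change was -0.04. Of 97 genes in 8 lists 86 were measured, of which 4 rose, 3 fell and 79 did not pass. Upstream of Atf4, none of 6 genes for eIF2alpha kinases and phosphatase subunits passed, with a list median of 0.02. Lowest in p was Eif2ak4, which encodes the amino acid sensor GCN2 (0.24, SE 0.12, adjusted p = 0.346 by limma).

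Among 12 other regulators that Atf4 can induce, 2 rose, none fell and 10 did not pass. The changes of 5 of the 12 were below 0. Ddit4, an inhibitor of mTORC1 that p53, glucocorticoids and hypoxia also induce, read 952.5, 1057, 1197, 1309 and 709.5 with the shRNA, against 436.8, 535.6, 600.1, 600.2 and 447.2 with the empty vector. The groups did not overlap, as for 1.19% of all probe sets in that direction, and Ddit4 rose by 0.98 (SE 0.09, adjusted p = 0.0015 by limma), 1.97-fold. Sesn2, a leucine sensor that p53 also induces, read 107, 149.1, 119.3, 123.6 and 104.3 with the shRNA, against 81.8, 81.6, 92.8, 69.4 and 82.4 with the empty vector. It rose by 0.56 (SE 0.11, adjusted p = 0.0301 by limma), 1.47-fold, but without pair 1, 2, 3 or 4 its adjusted p was 0.0661 to 0.126. When the 3 prime to 5 prime ratio was a covariate, Ddit4 was at 0.76 (adjusted p = 0.339) and Sesn2 at 0.39 (adjusted p = 0.835). The list median was 0.15.

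No amino acid transporter passed among 12 (median -0.05), and the lowest p was that of the cystine transporter Slc7a11 (0.23, adjusted p = 0.399 by limma). Slc7a11 was dim, at a mean of 8.17 with the shRNA and 7.05 with the empty vector, and only 1 of its 2 probe sets had this sign. None of 9 other amino acid synthesis enzymes passed (median -0.02), with Pck2, the mitochondrial phosphoenolpyruvate carboxykinase, at -0.20 (adjusted p = 0.302 by limma). Among 8 other folate enzymes none passed (median -0.11). Shmt1, the cytosolic counterpart of Shmt2, was at -0.30 (SE 0.08, adjusted p = 0.0987 by limma), lower in all 5 pairs. Of the 4 Shmt1 probe sets 3 had this sign. None of 19 cytosolic aminoacyl-tRNA synthetases passed, 13 of 19 changes were below 0 and the median was -0.06. All 19 were bright, so these values are near those of bright genes in general (58.5% and -0.04). Wars, the tryptophan enzyme, had the lowest p (-0.24, adjusted p = 0.162 by limma).

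Around Chac1, glutathione genes moved both ways. Of 5 measured, 2 rose, 1 fell and 2 did not pass. Gclc, the catalytic subunit of glutamate-cysteine ligase, rose by 0.49 (SE 0.09, adjusted p = 0.0223 by limma) and its modifier subunit Gclm by 0.38 (SE 0.08, adjusted p = 0.0467 by limma). Chac2, the constitutive relative of Chac1, fell by 0.43 (log2, SE 0.09, adjusted p = 0.0327 by limma) and was dim, at 18.06 ± 3.23 with the shRNA and 24.6 ± 6.16 with the empty vector (SD, n = 5 each). In the unpaired fit the adjusted p of Gclc, Gclm and Chac2 was 0.170, 0.137 and 0.252. Without a single pair, Gclc did not pass for pairs 2, 3 and 4 (up to 0.0919), and Gclm and Chac2 did not for any pair (up to 0.175 and 0.136).

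In the ATF6 and XBP1 arm of the unfolded protein response, which acts beside the Atf4 arm in stress of the endoplasmic reticulum, 2 of 15 genes fell, none rose and 13 did not pass. Sdf2l1, a component of chaperone complexes there, read 416.7, 414.6, 538.6, 364.8 and 453.1 with the shRNA, against 675.8, 545.1, 871.2, 1021 and 732.4 with the empty vector. Its groups did not overlap, as for 2.75% of all probe sets and 8.06% of the bright ones in that direction. Sdf2l1 fell by 0.79 (log2, SE 0.15, adjusted p = 0.0223 by limma). Manf, a secreted protein of that compartment, fell by 0.36 (SE 0.08, adjusted p = 0.0466 by limma). Manf did not pass in the unpaired fit (0.216) or without any 1 pair (up to 0.174), and Sdf2l1 did not without pair 1 or 3 (up to 0.0701). When the 3 prime to 5 prime ratio was a covariate, Sdf2l1 was at -0.33. The changes of 14 of the 15 genes were below 0, and the list median was -0.17. All 15 were bright, where 58.5% of bright genes and 49.0% of all genes had a change below 0.

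**Figure D5:**
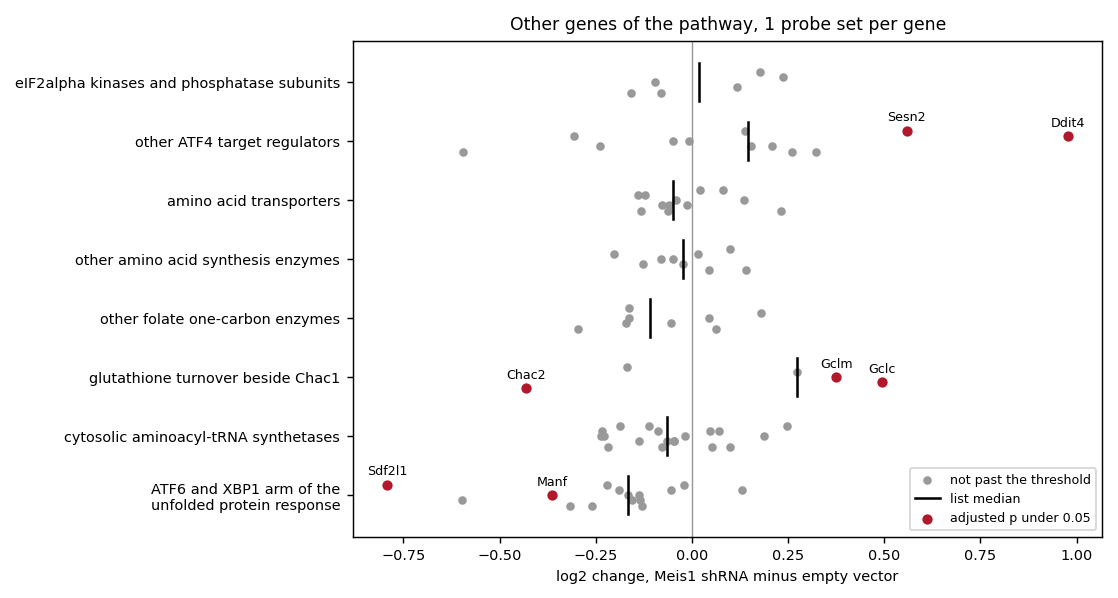
Log2 change (x axis, shRNA minus empty vector) of 86 genes in 8 lists of the pathway, 1 probe set per gene. Red points passed an adjusted p of 0.05, grey ones did not, and black bars give each list's median. Ddit4 and Sesn2 stand to the right of their list, and Sdf2l1 is the lowest point of the ATF6 and XBP1 arm.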

How the data were processed

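The deposited table gives 1 intensity per probe set and array. Per the submitters' processing notes the authors made them with RMA, with version and settings not given in the sources used here. That they are linear is read from their range. RMA is known to compress large changes. No detection calls were used. Of 45101 rows, 64 Affymetrix controls were left out, and of the other 45037 the platform annotation gave 34945 a single symbol, 932 more than 1 and 9160 no symbol. Symbols were those of that annotation. RefSeq (GRCm38.p6) served for promoters and chromosomes.

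Log2 values without a pseudocount were fitted with limma 3.58.1 in R 4.3.3 (lmFit, eBayes), with the pair number as a block, two-sided, Benjamini-Hochberg adjusted at 0.05. The pairing comes from the labels. Deviations of same-numbered arrays from their group means correlated at 0.600, 0.462, 0.339, 0.310 and 0.557 over 11215 bright probe sets. Member tests were adjusted over all probe sets. Pathway lists used, for each gene, the probe set with the highest mean. Single quantities were tested by exact sign-flip permutation over pairs. The fit was tested on simulated data. The number of arrays limits precision.

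Members and lists were chosen with earlier results of these data known. Named genes were all members, Meis1, from each list up to 3 genes past the threshold or else the one with the lowest p, and the 5 nearest profiles of Asns and Atf4. Alternatives were the unpaired fit, a random block, quantile normalization, median centring, other variance models, array weights, the 3 prime to 5 prime covariate, a brightness filter, the mean of probe sets, adjustment over genes and leaving out each pair.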

Additional observations from a re-analysis of the deposited data

Results flagged for a closer look

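In all, 2 arrays lay far from the 4 others of their group in a member probe set, by Dixon's criterion at the 95% level. Asns 1451095_at read 630.1 in control 5, where the other controls read 925.5 to 1059. Without pair 5 its change was -0.03, against 0.04 with all pairs. Psat1 1454607_s_at read 2609 in control 1, where the other controls read 2254 to 2299, and without pair 1 its change was -0.22 (adjusted p = 0.448 by limma), against -0.23 with all pairs. Chance alone marks about 5% of groups of this size, and 2 of 46 were marked here.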

How the results depend on the processing

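Member probe sets past the threshold numbered 0 as reported (6 at an unadjusted p under 0.05 by limma) and with each pair left out, without the pairing, with a random replicate block, after quantile normalization and with the 3 prime to 5 prime ratio. They numbered 1 with arrays centred on their medians (Asns 1433966_x_at, adjusted p = 0.0486), 1 with array weights (Asns 1433966_x_at, 0.0468) and 1 without moderation of variances (Phgdh 1426658_x_at, 0.0345). With trend and robust eBayes there were 5 and among bright probe sets alone 5, in both cases Asns 1433966_x_at, Phgdh 1426658_x_at and 1454714_x_at and both Psat1 probe sets. All of these were lower. Of 337 member values under 16 settings, 28 changed sign, in 11 probe sets whose reported changes were at most 0.15 in size, and 12 probe sets kept their sign throughout. The sign changes were Atf4 1439258_at 0.022, Shmt2 1455985_x_at 0.063 and Mthfd2 1419254_at 0.0096 after quantile normalization. With median centring they were Atf4 1438992_x_at -0.024, Trib3 1456225_x_at -0.026, Chac1 -0.012 and Asns 1451095_at -0.0037. With the 3 prime to 5 prime ratio they were Atf4 -0.14, 0.15 and 0.10, Chac1 -0.26, Shmt2 0.021 and 0.043 and Mthfd2 0.19 and 0.11, and as a mean of probe sets Atf4 was at -0.034. Leaving out 1 pair gave ranges, for Atf4 1438992_x_at from -0.036 to 0.059, Atf4 1439258_at from -0.31 to 0.15, Ddit3 1417516_at from -0.072 to 0.25 and Trib3 1456225_x_at from -0.11 to 0.20. For Chac1 they ran from -0.046 to 0.16, Asns 1451095_at from -0.034 to 0.091, Shmt2 1455985_x_at from -0.12 to 0.014 and Mthfd2 1419254_at from -0.10 to 0.015. Over all probe sets the count of 1116 became 2309 with trend and robust eBayes, 33 without moderation, 0 with the 3 prime to 5 prime ratio, 2040 among bright probe sets and 359 to 1674 without 1 pair. Without the replicate block it was 816 and the members' changes were the same. Quantile normalization gave a share of lower calls of 65.0%, beside 78.9% as reported.

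In the order trend and robust eBayes, no moderation, 3 prime to 5 prime ratio and bright genes alone, the other Atf4-induced regulators had 4, 0, 0 and 4 calls and the ATF6 and XBP1 list 6, 0, 0 and 4. Without 1 pair they had 1 to 4 and 0 to 1. Of the 4 calls among the regulators, 1 was lower and 3 higher, both under trend and robust eBayes and among bright genes alone. With median centring the regulators had 3 calls, 1 lower and 2 higher. The ATF6 and XBP1 list had 1 call without the replicate block and 1 with a random one. Glutathione genes had 0 calls without the replicate block, with a random one, without moderation and with the 3 prime to 5 prime ratio, and 0 to 1 without 1 pair. Under trend and robust eBayes and among bright genes, folate enzymes had 1 and 1 and the synthetases 3 and 2. As a mean of probe sets, the other amino acid synthesis enzymes had 1. The causes were not tested. Without a pair fewer arrays were used. Among bright features fewer were tested and the variances were also moderated anew. There the unadjusted p by limma was lower too, at 0.00074 for Asns 1433966_x_at, against 0.0022 over all probe sets. For Phgdh 1426658_x_at it was 0.00041, also against 0.0022. Dim probe sets of Atf3, Ddit3 and Shmt2 limit what could be seen.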
